A study of Mus musculus with 55 samples.

Results

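Interscapular brown fat (iBAT) of placebo mice housed at 13 °C was compared with that of placebo mice housed at 22 °C. The comparison takes the 5 libraries labelled Ctrl_CT (13 °C) and the 3 labelled Ctrl_RT (22 °C) from the iBAT count table, 8 of the 55 libraries of a series on how housing temperature alters the action of glucocorticoids on fat depots. All mice of these 2 groups were C57BL/6NRj males, described as 10 weeks old, and drank placebo for 4 weeks at their housing temperature, so that the 2 groups differ in the labels by temperature alone. The fit behind the test also held the 10 iBAT libraries of mice given corticosterone, 5 at each temperature, and took its estimate of spread from all 18. Areas of cryosectioned tissue were cut out by laser, and RNA from them was made into SMART-Seq2 libraries, in which full-length cDNA is amplified by PCR with no record of strand. The sources used here do not say how the areas were chosen. No label says which animal a library came from. Some areas of a group may come from the same mouse, and p-values that count them as separate mice would then be too small. Libraries of different depots may also share a mouse, which the depot tests below do not take into account and which could move their p-values either way.

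Brown adipocytes burn fatty acids and glucose to make heat. In the cold, sympathetic nerves release noradrenaline onto their beta-adrenergic receptors, cyclic AMP rises, lipolysis frees fatty acids, and uncoupling protein 1 (Ucp1) lets protons leak across the inner mitochondrial membrane so that respiration gives heat in place of ATP. Brown fat kept in the cold is known for more of the Ucp1, mitochondrial and fuel-handling transcripts, and housing at 22 °C is itself mildly cool for a mouse.

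Total gene counts were 18871231 to 33712367 per library at 22 °C and 14043773 to 19852646 at 13 °C. Expression is given as CPM, the counts divided by the scaled library size. Between 2 libraries of a group, log2 CPM correlated at 0.893 to 0.952 over the 13 pairs, and no pair was identical. Ucp1 stood at 1158 to 13260 CPM in the 8 libraries, as the tissue label states, and the epithelial keratins Krt5 and Krt14 were at 0 in all 8. On the same epithelial list, Krt8, Krt18, Krt19, Epcam and Cdh1 were at 0.598 CPM or less, and Krt10 stood at 7.03 to 17.9 CPM. The 22 °C group is uneven. When genes were sorted into 5 bins by the GC content of their transcripts, the highest bin of Ctrl_RT replicate 3 stood 0.96 above its lowest on the log2 scale, and the same gap lay between -0.39 and 0.06 in the other 7 libraries. This library also had the highest Ucp1 and Cidea and the lowest summed level of white adipocyte markers (246 CPM, against 424 to 3344 in the others), and limma gave it a quality weight of 0.341, against 0.944 to 2.22 in the others.

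**Figure D1:**
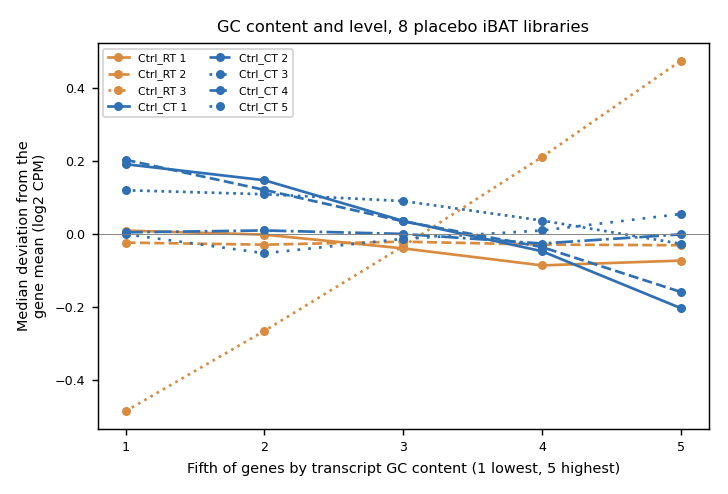
Median deviation of the genes of each GC bin from their own mean over the 8 libraries (log2 CPM, y axis) against the bin (x axis, 1 lowest GC), with 22 °C libraries in orange and 13 °C libraries in blue. Ctrl_RT 3 climbs from the lowest to the highest bin by 0.96, and the other 7 libraries change by -0.39 to 0.06.

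Only 3 genes passed the test (edgeR, quasi-likelihood F test, Benjamini-Hochberg adjusted p under 0.05), all higher at 13 °C: Retreg1, Cyp2b10 and BC028528. They are 0.0175% of the 17163 genes tested, and 0 genes (0%) were called lower. These calls came from the fit of all 18 iBAT libraries, and the 8 placebo libraries fitted alone gave 0 calls. At an unadjusted p under 0.05 there were 1500 genes (8.74%), 615 of them higher (3.58%) and 885 lower (5.16%). The 2 groups did not overlap for 677 genes that were higher at 13 °C (3.94%) and for 517 that were lower (3.01%). The median log2 fold change over all genes tested was -0.04, and 47.1% of them had a positive one. In what follows "rose" is kept for the 3 called genes, and other genes are given as values. The promoters of the called genes are shown first, with that of Cycs, the cytochrome c gene described below, because the cyclic AMP response element TGACGTCA that cold signalling acts through is a known feature of cold-responsive genes. The stretches are from RefSeq (GRCm38.p6), leave out bases annotated as exon (so that some are short), and run 5′ to 3′ on the gene's own strand, with any match to the motifs below in capitals.
Retreg1, chr15:25843048-25843179, + strand: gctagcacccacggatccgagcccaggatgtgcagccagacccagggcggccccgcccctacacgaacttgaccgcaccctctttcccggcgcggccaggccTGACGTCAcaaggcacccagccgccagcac
Cyp2b10, chr7:25897408-25897619, + strand: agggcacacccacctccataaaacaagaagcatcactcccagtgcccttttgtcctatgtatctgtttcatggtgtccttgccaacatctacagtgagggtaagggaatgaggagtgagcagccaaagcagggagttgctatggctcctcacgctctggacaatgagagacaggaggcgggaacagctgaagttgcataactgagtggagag
BC028528, chr3:95892063-95892312, - strand: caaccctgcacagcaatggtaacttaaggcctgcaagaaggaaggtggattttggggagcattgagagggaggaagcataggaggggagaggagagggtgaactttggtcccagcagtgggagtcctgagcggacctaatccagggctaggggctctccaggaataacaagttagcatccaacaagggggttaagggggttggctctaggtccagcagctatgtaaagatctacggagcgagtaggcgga
Cycs, chr6:50566570-50566642, - strand: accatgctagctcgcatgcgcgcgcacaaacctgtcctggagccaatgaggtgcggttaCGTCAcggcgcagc
The motifs searched on both strands in the 250 bases before each RefSeq start were the full cyclic AMP response element TGACGTCA, its 5-base part TGACG (which lies inside the full element), the nuclear receptor half-site AGGTCA, the E-box CACGTG and the TATA box TATAAA. The Retreg1 window held TGACGTCA once, starting 148 bases before the RefSeq start. The Cycs window held the full element 169 bases before the start and TGACG again 14 bases before it, on the reverse strand, which is the match in capitals (CGTCA) in the Cycs stretch. The windows of Cyp2b10 and BC028528 held none of the 5 motifs. TGACGTCA occurs in 1.6% of 27025 RefSeq promoters and in 2.65% of the 11030 that belong to genes tested here, and TGACG in 17.8% and 26.1%, so a match describes the letters and marks no bound site.

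Retreg1 encodes a membrane protein through which parts of the endoplasmic reticulum are taken into autophagy; it bends the reticulum and binds LC3 on forming autophagosomes (GRCm38 chr15:25843180-25973687, + strand). It stood at 7.92, 7.65 and 6.46 CPM in the 3 libraries at 22 °C and at 21.1, 35.55, 39.1, 34.3 and 28.7 CPM in the 5 at 13 °C. The 22 °C libraries lay close together, and the lowest 13 °C library was far above the highest of them. Retreg1 rose by 2.11 ± 0.30 on the log2 scale (± SE here and for all fold changes; edgeR adjusted p = 0.0110). Of the 9 receptors of this kind on the list, Retreg1 was the 1 called, where 0.0175% of all genes tested were called. The list was written with results of these data known, so this count says nothing about such receptors in general. The other 8 had log2 fold changes from -1.01 to 0.28, with a list median of -0.02.

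Cyp2b10 encodes a cytochrome P450 of the endoplasmic reticulum that oxidises drugs, steroids and fatty acids, best known as a liver target of the nuclear receptor CAR (GRCm38 chr7:25897620-25926624, + strand). The 22 °C libraries had 13.8, 4.61 and 8.575 CPM. At 13 °C the values were 27.5, 49.7, 117.8, 49.75 and 68.2 CPM, so that the groups did not overlap and Ctrl_CT replicate 3 was highest. Cyp2b10 rose by 2.79 ± 0.46 (edgeR adjusted p = 0.0342). A close relative, Cyp2b13, was the only other member of the Cyp2b list that could be tested, at 0.149, 0 and 0 CPM against 0.269 to 0.639 CPM. With 13.1% of the 31-base words of Cyp2b10 also present in Cyp2b13, reads could pass between them. The nuclear receptor genes Nr1i3 (CAR) and Nr1i2 (PXR) did not reach the count filter, and none of the 23 tested genes of the xenobiotic list was called (6 with a positive fold change, median -0.30). Cyp1b1, an extrahepatic P450, stood at 17.6, 8.01 and 1.6 CPM against 1.20 to 4.03 CPM, and Por, the electron donor of microsomal P450 enzymes, at 315 to 432 against 211 to 353 CPM.

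BC028528 (GRCm38 chr3:95883954-95892005, - strand) stood at 19.8, 10.3 and 22.5 CPM at 22 °C and at 77.97, 117.1, 90.7, 61.2 and 56.02 CPM at 13 °C. All 5 cold libraries were above all 3 others, and the gene rose by 2.20 ± 0.37 (edgeR adjusted p = 0.0342). Its exons overlap those of the antisense gene C920021L13Rik over 698 bases, and 45.6% of its 31-base words occur there, so without strand its reads are uncertain. C920021L13Rik itself had 4.16, 5.69 and 8.19 CPM against 4.46, 6.77, 10.1, 10.85 and 15.3 CPM, which overlap (0.66 ± 0.47, edgeR adjusted p = 0.723). Per kilobase of exon, the level at 13 °C was 57.5 ± 17.6 CPM for BC028528, 29.6 ± 16.1 for Cyp2b10 and 7.67 ± 1.69 for Retreg1 (SD, n = 5), beside 3701 ± 1209 for Ucp1.

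**Figure D2:**
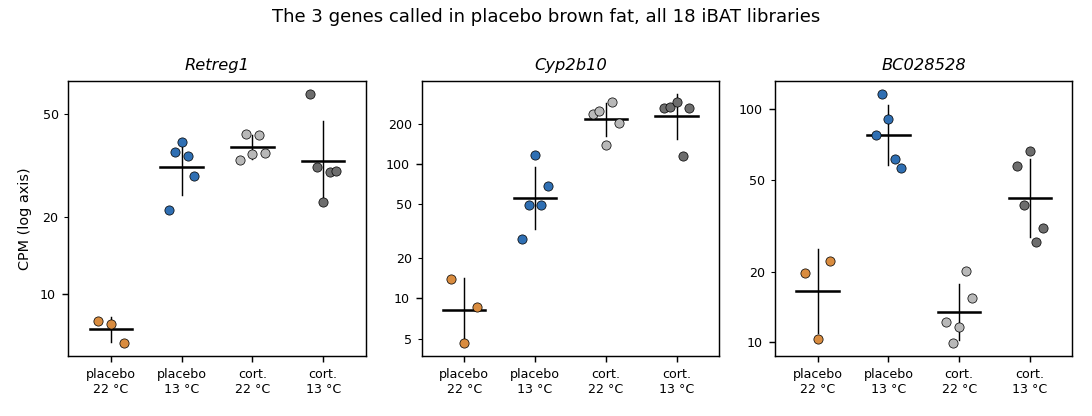
CPM (y axis, log scale) of the 3 called genes in the 18 iBAT libraries, by treatment and temperature (x axis, cort. is corticosterone); points are libraries, wide bars geometric means and thin bars 1 SD of log2 CPM. In placebo mice all 5 points at 13 °C lie above all 3 at 22 °C for each gene, and under corticosterone the temperatures overlap for Retreg1 and Cyp2b10 but not for BC028528.

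Mice given corticosterone show how these 3 genes stood under the same temperatures with the hormone. Retreg1 had 33.1 to 41.9 CPM at 22 °C and 22.8 to 60.0 CPM at 13 °C with corticosterone (5 libraries each), and its cold effect there was -0.11 ± 0.24. All 5 corticosterone libraries at 22 °C were thus above the placebo libraries at 22 °C and within or above the placebo range at 13 °C. Cyp2b10 had 138 to 291 CPM at 22 °C and 114 to 289 CPM at 13 °C (0.10 ± 0.35), and all 10 values but the lowest exceeded the highest placebo value of 117.8. BC028528 had 9.91 to 20.3 CPM at 22 °C and 27.0 to 66.2 CPM at 13 °C, with no overlap (1.66 ± 0.30, edgeR adjusted p = 0.0780). The cold effect under corticosterone minus that under placebo was -2.22 ± 0.38 for Retreg1 (adjusted p = 0.126), -2.69 ± 0.55 for Cyp2b10 (adjusted p = 0.466) and -0.54 ± 0.45 for BC028528 (adjusted p = 0.846), all from edgeR. No gene passed for this difference (0 of 17163, 0%), and 1098 had an unadjusted p below 0.05 (6.4%). DESeq2 called 9 genes for this difference, Retreg1 and Cyp2b10 among them, and limma with library weights called Retreg1 alone, as edgeR did without GC_CT replicate 1 (-2.51, edgeR adjusted p = 0.0018).

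The calls rest on few libraries at 22 °C. Leaving out any of the 3 Ctrl_RT libraries ended the call of all 3 genes (edgeR adjusted p = 0.0685 to 0.166 for Retreg1), as did fitting the 8 placebo libraries alone, with 0 genes called and 1575 at an unadjusted p under 0.05. Without Ctrl_CT replicate 1 the calls were Retreg1 and Cyp2b10, without replicate 2 or 3 Retreg1 alone, without replicate 4 all 3, and without replicate 5 Retreg1 and BC028528. The fold changes themselves stayed at 2.03 to 2.22, 2.44 to 3.25 and 1.93 to 2.42 over these 8 fits, for Retreg1, Cyp2b10 and BC028528. Without Ctrl_RT replicate 3 the 1 gene called was Igfbp5, a secreted binder of insulin-like growth factors (-2.16, edgeR adjusted p = 0.0196), at 122, 71.3 and 14.3 CPM against 15.7 to 28.6 CPM. After a correction for GC content 2 genes passed (0.0117% of those tested), and BC028528 was not among them (1.92, edgeR adjusted p = 0.0921). Genes at an unadjusted p under 0.05 were then 2.82% higher and 5.24% lower.

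Below the threshold, the genes of smallest p that were higher in every cold library are given next. Cycs encodes cytochrome c, the carrier of electrons between complexes III and IV. It stood at 108.5, 102 and 106.5 CPM at 22 °C and at 255, 284, 214, 253 and 202 CPM at 13 °C. The 22 °C values were almost equal, and every cold value was well above them (1.19 ± 0.25, edgeR adjusted p = 0.206). The processed copies Gm10108 (23.1, 23.2 and 32.6 against 61.6 to 94.6 CPM), Gm13772 (7.34 to 8.62 against 17.4 to 37.5 CPM) and Gm10053 (139 to 233 against 314 to 458 CPM) did not overlap either, with edgeR adjusted p = 0.0796, 0.0752 and 0.227. They were chosen after their values were seen, and share much of their sequence with Cycs, so that counts can pass between them.

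Ndufaf1, an assembly factor of respiratory complex I, had 43.7, 39.9 and 36.2 CPM at 22 °C and 60.3 to 97.2 CPM at 13 °C (1.06 ± 0.22, edgeR adjusted p = 0.177). Etfrf1, a regulator of the electron transfer flavoprotein, had 116 to 142.5 against 218 to 396 CPM. Apoo, a subunit of the complex that shapes mitochondrial cristae, had 16.8 to 20.4 against 32.0 to 41.1 CPM. Btc, a ligand of the epidermal growth factor receptor, had 5.83, 3.36 and 7.30 CPM against 13.6 to 24.7 CPM (1.70 ± 0.38), Ahcyl1, an inhibitor of the IP3 receptor, 133 to 204 against 295 to 500 CPM, and Tstd3 18.8 to 19.3 against 25.9 to 57.2 CPM. The edgeR adjusted p of these genes ran from 0.177 to 0.226.

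Genes of smallest p that were lower in every cold library were led by Dtx2, a ubiquitin ligase of the Deltex family that acts in Notch signalling. It stood at 27.5, 39.3 and 34.1 CPM at 22 °C and at 16.5, 12.5, 13.5, 16.8 and 16.4 CPM at 13 °C, with no overlap (-1.15 ± 0.24, edgeR adjusted p = 0.177). Tst, the mitochondrial sulfurtransferase rhodanese, had 218, 159 and 109 CPM against 50.1 to 67.4 CPM (-1.41 ± 0.32). Acp5, a lysosomal acid phosphatase of macrophages and osteoclasts, had 595 to 633 against 182 to 326.5 CPM. Plpp3, a phosphatase that removes lysophosphatidic acid, had 72.3 to 127 against 26.7 to 59.5 CPM. Of the secretory pathway, Tmed3, a cargo receptor, had 62.9 to 106 against 32.8 to 42.9 CPM and Crtap, which helps to hydroxylate collagen, 32.5 to 58.3 against 15.5 to 23.6 CPM. Eng, the TGF-beta co-receptor of blood vessel endothelium, had 54.3 to 81.4 against 20.6 to 37.96 CPM, the protease gene Adam15 42.4 to 57.3 against 19.7 to 29.1 CPM, the kinase gene Aatk 23.3 to 48.8 against 7.53 to 20.8 CPM and Mum1 20.8 to 25.75 against 4.81 to 12.5 CPM. The edgeR adjusted p of these genes ran from 0.177 to 0.249, so none passed.

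DESeq2 and limma with library weights called more genes on the same counts: 78 (54 higher, 24 lower) and 1031 (428 higher, 603 lower). All 78 of the first set were in the second, and Retreg1, Cyp2b10, BC028528, Cycs, Ndufaf1, Slc25a20, Hadhb and Herpud1 were in both. The 10 genes named above as lower in every cold library, from Dtx2 to Mum1, were also in both. Of other named genes, Xbp1, Mmp2, Mmp14, Agt, Gamt, Igfbp5 and Adora2a were in both with negative fold changes. Hlf, Acadm, Etfrf1, Apoo, Btc, Ahcyl1, Tstd3, Guf1, Gm10053, Gm10108 and Gm13772 were in both with positive ones.

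Ucp1, the heat-making uncoupling protein, showed no difference larger than the spread. It stood at 3683, 1158 and 13260 CPM at 22 °C and at 3363, 6416, 7513, 4791 and 8189 CPM at 13 °C. The highest and the lowest of the 8 values were both at 22 °C, and the log2 fold change was 0.01 ± 0.51 (edgeR adjusted p = 0.998), with a sign that changed with the scaling (-0.02 with DESeq2's size factors). Without Ctrl_RT replicate 3 the Ucp1 fold change was 1.32, and without Ctrl_RT replicate 2 it was -0.48, neither past the test. Dio2, the deiodinase that activates thyroid hormone inside brown adipocytes, had 147, 75.8 and 142 CPM against 44.3, 208, 178, 124.5 and 164 CPM. Cidea, a lipid droplet protein typical of brown fat, had 1922, 1749 and 5543 CPM against 2396, 3655, 3295, 3751 and 4158 CPM. Both overlapped, with Ctrl_CT replicate 1 lowest for Dio2 and Ctrl_RT replicate 3 highest for Cidea.

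Elovl3, the elongase of very long fatty acids in brown fat, had 133, 122 and 317 CPM against 547, 457, 732.5, 408 and 415 CPM. Every cold library was above every 22 °C library, and Ctrl_RT replicate 3 was the nearest of the latter (1.42 ± 0.50, edgeR adjusted p = 0.384). The Elovl3 fold change was 2.00 without Ctrl_RT replicate 3 and 1.19 without Ctrl_RT replicate 2. Under corticosterone, where edgeR called 1 gene (0.00583%), that gene was Elovl3: 33.3 to 67.7 CPM at 22 °C and 234 to 1308 CPM at 13 °C (3.36 ± 0.45, edgeR adjusted p = 0.00317). The test of the difference between the 2 cold effects gave 1.94 ± 0.62 (edgeR adjusted p = 0.765). Slc25a20, the carnitine-acylcarnitine carrier of the inner mitochondrial membrane, had 378.5, 343 and 553 CPM against 804, 1042, 1046, 772 and 828 CPM (1.08 ± 0.25, edgeR adjusted p = 0.223), with no overlap. Gpd2, the mitochondrial glycerol phosphate dehydrogenase, had 442 to 787 against 859 to 1182 CPM, and Acot11, a thioesterase of brown fat, 61.6 to 165 against 184 to 251 CPM. Eva1b was lower without overlap, at 8.39, 13.3 and 16.8 CPM against 3.93 to 7.93 CPM.

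Of the 16 heat-producing effectors on the list, 14 had a positive fold change and 0 were called. Without overlap, 4 were higher (25%, against 3.94% of all genes tested) and 1 was lower (6.25%, against 3.01%). Their median log2 fold change was 0.42, against -0.04 for all genes. The median was 0.98 without Ctrl_RT replicate 3 and 0.16 without Ctrl_RT replicate 2, so its size rests on these libraries. The 12 tested genes of creatine and calcium cycling, other ways of making heat, had a median of -0.27, which was 0.23 without Ctrl_RT replicate 3 and -0.64 without Ctrl_RT replicate 2. Among them Gamt, an enzyme of creatine synthesis, was the 1 lower without overlap (8.33%, against 3.01% of all genes; 17.1, 24.9 and 17.1 against 4.10 to 14.0 CPM), and Ckb, the creatine kinase of brown fat, overlapped (25.02 to 49.8 against 10.3 to 35.7 CPM).

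**Figure D3:**
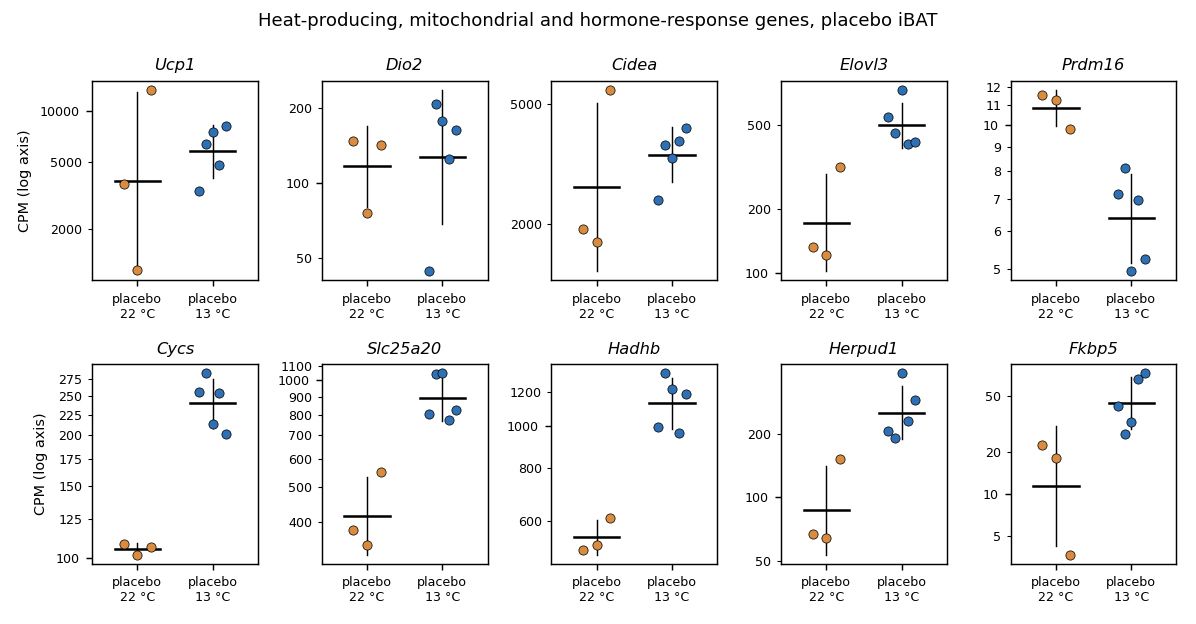
CPM (y axis, log scale) of 10 genes in the 8 placebo libraries by temperature (x axis); points are libraries, wide bars geometric means and thin bars 1 SD of log2 CPM. Ucp1, Dio2 and Cidea overlap between temperatures, Prdm16 lies lower at 13 °C in every library, and the other 6 lie higher in every library, none of the 10 past the test.

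Upstream of these effectors, 23 genes of adrenergic and cyclic AMP signalling had a median of 0.04, which was 0.20 without Ctrl_RT replicate 1. None was called, 3 were higher without overlap (13%, against 3.94% of all genes tested) and 1 was lower (4.35%, against 3.01%). Adrb3, the main beta-adrenergic receptor of mouse adipocytes, had 217, 421 and 155 CPM against 105 to 194 CPM, and Adrb1 4.91, 4.34 and 14.4 against 10.5 to 15.4 CPM; both overlapped. Adra1a, an alpha-adrenergic receptor, overlapped too (11.2 to 18.8 against 16.0 to 31.4 CPM). Atf2, a factor that cyclic AMP signalling activates through p38 kinase, had 37.2 to 45.95 against 61.3 to 91.2 CPM without overlap (0.80 ± 0.25, edgeR adjusted p = 0.353).

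The 28 transcription regulators of brown fat had a median of -0.01, which was 0.16 without Ctrl_RT replicate 3 and -0.06 without Ctrl_CT replicate 2. None was called, 0 were higher and 2 were lower without overlap (7.14%, against 3.01% of all genes), Cebpa and Prdm16. Of the 28, 14 had a positive and 14 a negative fold change. At an unadjusted edgeR p under 0.05, 4 were higher and 1 was lower, where 3.58% and 5.16% of all genes were. Prdm16, a co-regulator that sets brown adipocyte identity, was at 11.5, 11.2 and 9.79 CPM at 22 °C and at 7.15, 8.14, 4.94, 6.96 and 5.25 CPM at 13 °C. All 5 cold values were below all 3 others (-0.74 ± 0.35, edgeR adjusted p = 0.565). Ppargc1a, the co-activator of mitochondrial biogenesis, overlapped at 138, 52.4 and 45.5 CPM against 28.3, 128, 125, 85.4 and 97.4 CPM. Ebf2, which marks brown preadipocytes, had 20.3 to 35.0 against 27.5 to 51.7 CPM and Esrrg, an oestrogen-related receptor, 5.77 to 7.94 against 5.76 to 22.8 CPM.

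Fuel use was spread over several lists, in none of which a gene was called. Of 24 genes of fatty acid oxidation, 18 had a positive fold change, and Acadm, Hadhb and Slc25a20 were higher without overlap (12.5%, against 3.94% of all genes), 0 lower. Hadhb, the thiolase subunit of the trifunctional protein, stood at 515, 528 and 612 CPM against 998, 1328, 1223, 965 and 1190 CPM (1.05 ± 0.25, edgeR adjusted p = 0.226). Acadm, medium-chain acyl-CoA dehydrogenase, had 1103 to 1401 against 1885 to 2721 CPM, and Etfdh, which passes their electrons to ubiquinone, overlapped at 341 to 627 against 622 to 1051 CPM. Their list median was 0.22, and 0.71 or 0.10 without Ctrl_RT replicate 3 or 2.

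The 19 genes of fatty acid uptake had a median of -0.16, and -0.49 without Ctrl_RT replicate 2, with 1 higher and 1 lower without overlap (5.26% each, against 3.94% and 3.01% of all genes). Lpl, the lipase that frees fatty acids from lipoproteins, had 6272, 5923 and 2951 CPM against 2417 to 4217 CPM, and its inhibitor Angptl4 218 to 403.5 against 117 to 225 CPM. Apoe, a lipoprotein ligand, was lower without overlap (1853 to 2657 against 729.8 to 1205 CPM) and Vldlr, the VLDL receptor, higher without overlap (89.2 to 111 against 123 to 175 CPM). Fabp5, a fatty acid carrier also found in macrophages, had 162.5, 183 and 45.3 CPM against 14.3 to 86.2 CPM. The 18 lipolysis genes had a median of -0.18, which was 0.01 without Ctrl_RT replicate 3 and -0.29 without Ctrl_RT replicate 1. Of these, 0 were higher and 3 were lower without overlap (16.7%, against 3.01% of all genes), Abhd5, Bscl2 and Mgll. Mgll, the monoglyceride lipase, had 1007 to 1472 against 789 to 961 CPM, and Bscl2, the seipin of droplet assembly, 332 to 420 against 170 to 245 CPM. The rate-setting lipase genes Pnpla2 (2148 to 3204 against 2004 to 2733 CPM) and Lipe (721 to 1023 against 460 to 1020 CPM) overlapped.

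Of 20 genes of fatty acid synthesis, Elovl3 was higher without overlap (5%, against 3.94% of all genes) and Srebf1, Nr1h3 and Slc25a1 were lower (15%, against 3.01%). The list median of 0.03 was -0.11 without Ctrl_CT replicate 1 and 0.20 without Ctrl_RT replicate 2. Srebf1, the transcription factor that drives this pathway, had 191, 215 and 189.5 CPM at 22 °C and 136, 77.6, 64.8, 118 and 92.7 CPM at 13 °C (-1.02 ± 0.28, edgeR adjusted p = 0.279). Nr1h3, the oxysterol receptor upstream of it, had 101 to 132.5 against 63.3 to 89.5 CPM and Slc25a1, the citrate carrier, 1564 to 2701 against 569 to 1235 CPM. Enzymes of the pathway overlapped between temperatures. Fasn had 8129 to 10760 against 8612 to 11880 CPM, Acaca 568 to 934 against 775 to 1040 CPM and Elovl6 519 to 1288 against 738 to 1367 CPM. The 18 genes of triglyceride synthesis had a median of -0.12, which was 0.01 without Ctrl_RT replicate 2 and -0.19 without Ctrl_CT replicate 5. Agpat2, an acyltransferase of that pathway, was the 1 lower without overlap (5.56%, against 3.01% of all genes). It had 1569, 2303 and 5976 against 1270 to 1544 CPM.

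Glucose use gave 20 positive fold changes among 28 genes, with Hk1, Hk2, Pfkp, Pgam1 and Pgk1 higher without overlap (17.9%, against 3.94%), 0 lower and a median of 0.16 that was 0.53 without Ctrl_RT replicate 3. Hk2, the insulin-regulated hexokinase, had 174, 198 and 179 CPM against 258 to 390 CPM (0.77 ± 0.34, edgeR adjusted p = 0.531). Pgk1 and Pgam1, enzymes of the lower part of glycolysis, had 25.1 to 49.7 against 49.8 to 61.7 CPM and 40.1 to 55.99 against 57.2 to 78.2 CPM. The transporter gene Slc2a4 overlapped (280 to 408 against 265 to 322 CPM), as did Pdk4, the kinase that closes pyruvate dehydrogenase (749 to 1283 against 1111 to 2524 CPM). Of 22 genes of branched-chain amino acid breakdown, Dld and Hibch were higher without overlap (9.09%, against 3.94% of all genes) and 0 lower. Dld had 438 to 588 against 728.5 to 1003 CPM and Hibch 196 to 251 against 294 to 360 CPM, and the list median of 0.29 was 0.14 after the GC correction. Slc25a44, the mitochondrial carrier of these amino acids, had 38.1, 71.5 and 42.8 CPM against 68.1 to 90.1 CPM, and Bcat2, their mitochondrial transaminase, 127 to 394.5 against 103 to 174 CPM. Of 18 citric acid cycle genes, 16 had a positive fold change, where 47.1% of all genes did, around a median of 0.39 (0.85 without Ctrl_RT replicate 3 and 0.23 without Ctrl_RT replicate 2). Mdh2 (716 to 1228 against 1306 to 1862 CPM) and Sdhd (648 to 881 against 996 to 1680 CPM) were higher without overlap (11.1%, against 3.94% of all genes) and 0 lower, while Pcx, which refills the cycle, had 571 to 1293 against 367 to 702 CPM.

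**Figure D4:**
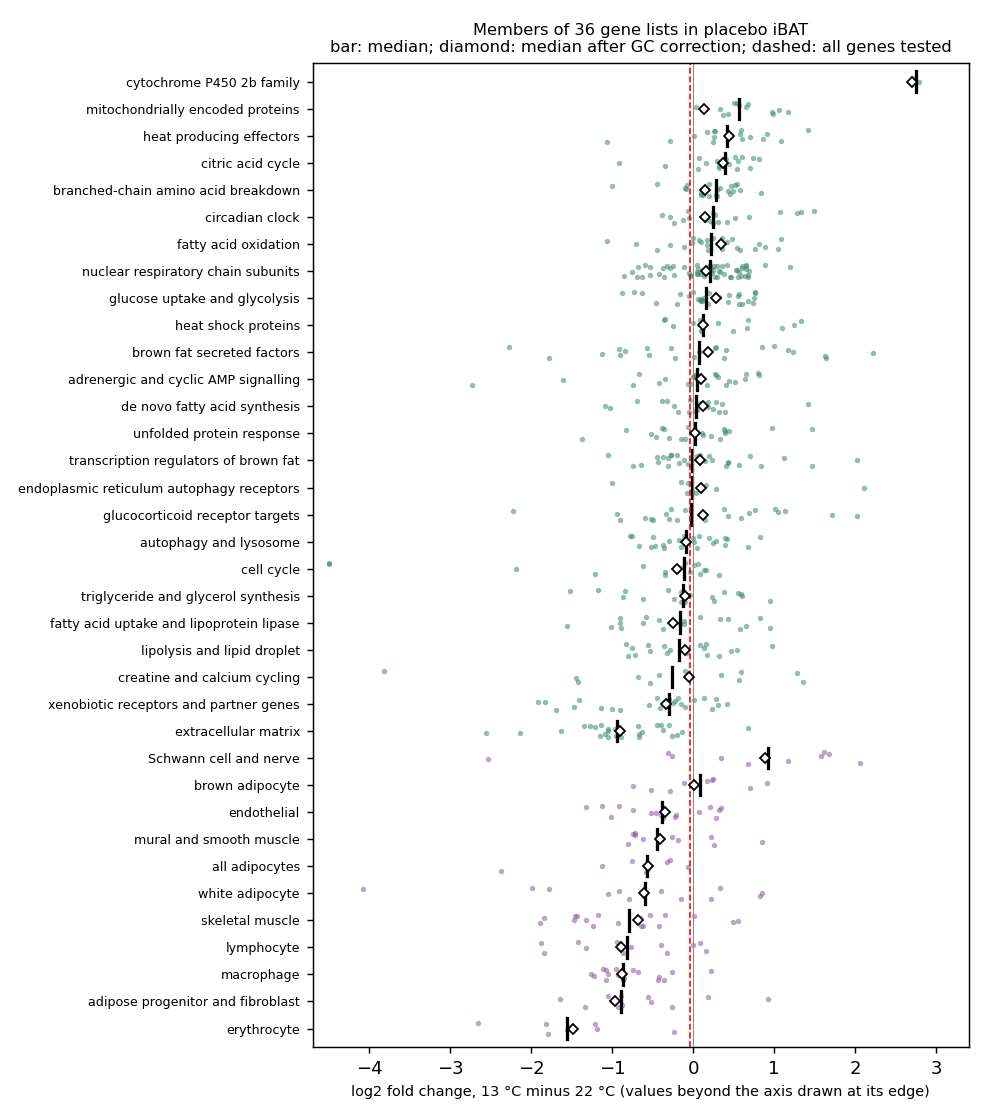
Log2 fold change at 13 °C against 22 °C (x axis) of the tested members of 36 gene lists (y axis), pathways in green and cell type markers in purple; black bars are list medians, diamonds medians after the GC correction, and the dashed line is the median of all genes tested (-0.04). Medians of the mitochondrial lists lie to the right of the line (0.56 for the mitochondrially encoded proteins, whose diamond is at 0.14), and those of matrix and most other cell type markers to its left.

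The respiratory chain was followed through its 2 genomes. Of 61 nuclear subunit genes, 42 had a positive fold change and none was called. Without overlap, 1 was lower (1.64%, against 3.01% of all genes) and 5 were higher (8.2%, against 3.94%). Beside Cycs these were Ndufs1 (306 to 342 against 422 to 642 CPM) and Ndufs4 of complex I and Uqcrb (369 to 544 against 591 to 1094 CPM) and Uqcrc2 (533.5 to 687 against 793 to 1264 CPM) of complex III. Atp5j, of the ATP synthase, was the one that was lower (344, 400 and 727 against 281 to 330 CPM). Exons overlap those of an antisense gene over 397 bases in Atp5j, and also over 489 bases in Ndufs1 and 504 in Uqcrc2, both higher. The list median was 0.20, 0.82 without Ctrl_RT replicate 3 and -0.06 without Ctrl_RT replicate 2.

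The 13 protein genes of the mitochondrial genome all had positive fold changes, where 47.1% of all genes did, with a median of 0.56 and none called. mt-Nd5, of complex I, had 4942, 3989 and 3373 CPM against 8408, 11750, 6909, 5227 and 7897 CPM, and every cold library was higher (0.97 ± 0.33, edgeR adjusted p = 0.376). mt-Cytb, of complex III, had 26590, 28320 and 43290 CPM against 39270 to 95980 CPM. mt-Nd4l, also of complex I, was higher without overlap (28.6 to 36.2 against 50.55 to 88.2 CPM), and mt-Atp8, of the ATP synthase, overlapped (60.1 to 134 against 131.9 to 254.5 CPM). Together, mitochondrially encoded genes took 13.2, 12.4 and 15.3% of counts at 22 °C and 21.2, 25.6, 17.5, 16.7 and 17.2% at 13 °C. The groups did not overlap, at 13.7 ± 1.52% (SD, n = 3) and 19.6 ± 3.804% (SD, n = 5), and the difference of 5.99 percentage points had p = 0.0357 in a two-sided exact permutation test, the smallest p that the 56 assignments of 8 libraries allow. Transcripts of this genome are poor in GC (median 37.1%), and after the GC correction 9 of the 13 were positive with a median of 0.14, where the median of all genes became -0.09. Over all genes, the median fold change ran from 0.17 in the lowest bin by GC content to -0.29 in the highest before the correction.

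Clock and hormone-response genes were also among those without overlap. Of 19 clock genes, Per2, Hlf, Cry1 and Tef were higher in every cold library (21.1%, against 3.94% of all genes), 0 lower, around a median of 0.25, and none was called. Fold changes were positive in 13 of the 19 and negative in 6. The clock genes Dbp (11.4 to 21.35 against 11.2 to 18.8 CPM) and Arntl (0.328 to 3.285 against 0.541 to 2.74 CPM) overlapped. These values are scaled with the placebo libraries of all 3 depots. Per2, a repressor of the clock, had 6.67, 7.52 and 6.59 CPM against 26.5, 13.4, 20.3, 21.4 and 16.2 CPM (1.497 ± 0.53, edgeR adjusted p = 0.4). Hlf, a factor of the clock output, had 9.14, 11.7 and 14.8 CPM against 26.6 to 32.0 CPM (1.33 ± 0.37, edgeR adjusted p = 0.279), and Cry1, a partner of the period proteins, 6.85 to 8.32 against 13.9 to 17.6 CPM. The hour at which tissue was taken is not given in the sources used here. Of 23 known targets of the glucocorticoid receptor, Fkbp5, Tsc22d3 and Klf9 were higher without overlap (13%, against 3.94% of all genes) and 0 were lower. Of the 23, 11 had a positive and 12 a negative fold change, the lowest -2.22. At an unadjusted edgeR p under 0.05, 5 were higher and 3 lower. The list median of -0.03 was 0.41 without Ctrl_RT replicate 3. Fkbp5, a co-chaperone that feeds back on the receptor, had 22.3, 17.99 and 3.65 CPM against 42.5, 26.9, 32.4, 66.3 and 72.5 CPM (1.71 ± 0.56, edgeR adjusted p = 0.362), and its fold change was 1.25 without Ctrl_RT replicate 3. Tsc22d3, the anti-inflammatory mediator GILZ, had 78.2 to 108 against 140.5 to 281 CPM (1.13 ± 0.33, edgeR adjusted p = 0.323), and Klf9 99.3 to 168 against 186 to 221 CPM. Zbtb16, another gene of this kind, overlapped (2.01 to 9.34 against 3.78 to 31.5 CPM).

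Around Retreg1, other genes of the endoplasmic reticulum and of autophagy were examined. Herpud1, which serves the degradation of misfolded proteins at this membrane, had 67.0, 64.2 and 152 CPM against 206, 191, 387.5, 231 and 290 CPM, with no overlap (1.47 ± 0.40, edgeR adjusted p = 0.279). Xbp1, the transcription factor of the unfolded protein response, stood at 370, 389 and 121 CPM against 67.1 to 155 CPM, the 2 groups overlapping through Ctrl_RT replicate 3. The chaperone gene Canx had 152 to 204 against 214 to 287 CPM without overlap. Over the 20 genes of this response the median was 0.02, with 10 fold changes on either side, and it was -0.12 without Ctrl_RT replicate 3 and 0.23 without Ctrl_RT replicate 1. Herpud1 and Canx were the 2 higher without overlap (10%, against 3.94% of all genes), and 0 were lower. Of 25 autophagy and lysosome genes, Map1lc3b (215 to 303 against 371 to 502.5 CPM), Gabarapl1 (143 to 162 against 166 to 278 CPM) and Bnip3 (175 to 249.8 against 279.5 to 504 CPM) were higher without overlap (12%, against 3.94%) and 1 was lower (4%, against 3.01%), around a median of -0.09 that was 0.05 without Ctrl_RT replicate 3 and -0.16 without Ctrl_RT replicate 2. The first 2 of these encode the LC3-like proteins that autophagy receptors bind, and Bnip3 a receptor for autophagy of mitochondria.

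Markers of other cells differed between libraries, and in such bulk samples fewer cells of a type and less RNA per cell cannot be told apart. Extracellular matrix genes had negative fold changes in 27 of 28, with 11 at an unadjusted p under 0.05 (5.16% of all genes lay there) and 0 called. Only 1 was lower without overlap (3.57%, close to the 3.01% of all genes). Their median of -0.94 was -1.18 without Ctrl_RT replicate 3 and -0.54 without Ctrl_RT replicate 1. Mmp2, a gelatinase, had 59.0, 35.3 and 7.62 CPM against 3.43 to 13.0 CPM and Mmp14, its membrane-bound activator, 37.5, 20.3 and 2.50 CPM against 1.74 to 7.42 CPM. In both genes Ctrl_RT replicates 1 and 2 were high and replicate 3 lay within the cold range. Lum, a collagen-binding proteoglycan, had 183, 122 and 32.8 CPM against 24.1 to 64.4 CPM, while Loxl1, an enzyme that cross-links elastin, was lower without overlap (18.4 to 27.8 against 6.99 to 11.6 CPM).

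The 12 markers of adipose progenitors and fibroblasts followed the same libraries, with summed levels of 892, 3263 and 4817 CPM as lowest, median and highest at 22 °C and 742, 808 and 2177 CPM at 13 °C. Their part in the matrix values was not tested. The 18 macrophage markers summed to 168 to 666 CPM at 22 °C and 140 to 326 CPM at 13 °C, with 17 negative fold changes and a median of -0.87 that was -0.14 without Ctrl_RT replicate 1 and -1.25 without Ctrl_RT replicate 3. Markers of all adipocytes had negative fold changes in 8 of 8 (median -0.57): Adipoq, the adipokine adiponectin, had 3675, 4365 and 631 CPM against 672 to 2141 CPM, and Cfd, adipsin, 21650, 9454 and 1414 against 610 to 4578 CPM. White adipocyte markers ranged from 246 to 3344 CPM at 22 °C and from 424 to 2028 CPM at 13 °C. Of the 12 tested, 4 had a positive fold change and 0 were without overlap, around a median of -0.60 that was -0.04 without Ctrl_RT replicate 2 and -1.02 without Ctrl_RT replicate 3. Among them, Agt, angiotensinogen, which white adipocytes secrete, had 137, 43.0 and 1.28 against 1.395 to 7.50 CPM. Igf1, the growth factor, had 205, 251 and 15.2 CPM against 10.9 to 71.6 CPM, again high in Ctrl_RT replicates 1 and 2. White fat within the captured areas was not tested as a source of these values.

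Brown adipocyte markers summed to 8775, 5108 and 34510 CPM in Ctrl_RT replicates 1 to 3 and to 10500 to 22600 CPM at 13 °C, with a median fold change of 0.09 that was 0.64 without Ctrl_RT replicate 3 and -0.16 without Ctrl_RT replicate 1. Red cell genes had negative fold changes in 7 of 7 tested (median -1.56; summed 5601 to 21380 against 1818 to 7330 CPM), Alas2 among them (21.7 to 49.0 against 5.36 to 22.5 CPM). Skeletal muscle markers were high in Ctrl_RT replicate 3 and Ctrl_CT replicate 4 (410 and 475 CPM summed) and in Ctrl_RT replicate 1 (159 CPM), and their median of -0.79 was -3.37 without Ctrl_CT replicate 4 and 0.22 without Ctrl_RT replicate 3. Nerve and Schwann cell markers had 7 positive and 3 negative fold changes of 10 (median 0.92, lowest -2.53). Their summed levels overlapped (179 to 229.5 against 187 to 256 CPM). S100b and Tubb3 were higher without overlap (20%, against 3.94% of all genes), 0 lower. S100b, a calcium-binding protein of Schwann cells that brown fat also secretes, had 19.8, 17.0 and 23.0 CPM against 40.3, 84.9, 25.5, 38.8 and 35.1 CPM with no overlap (1.17 ± 0.39, edgeR adjusted p = 0.362). Sox10, on the same list, went the other way, with means of 0.43 and 0.07 CPM when scaled with the placebo libraries of all 3 depots.

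**Figure D5:**
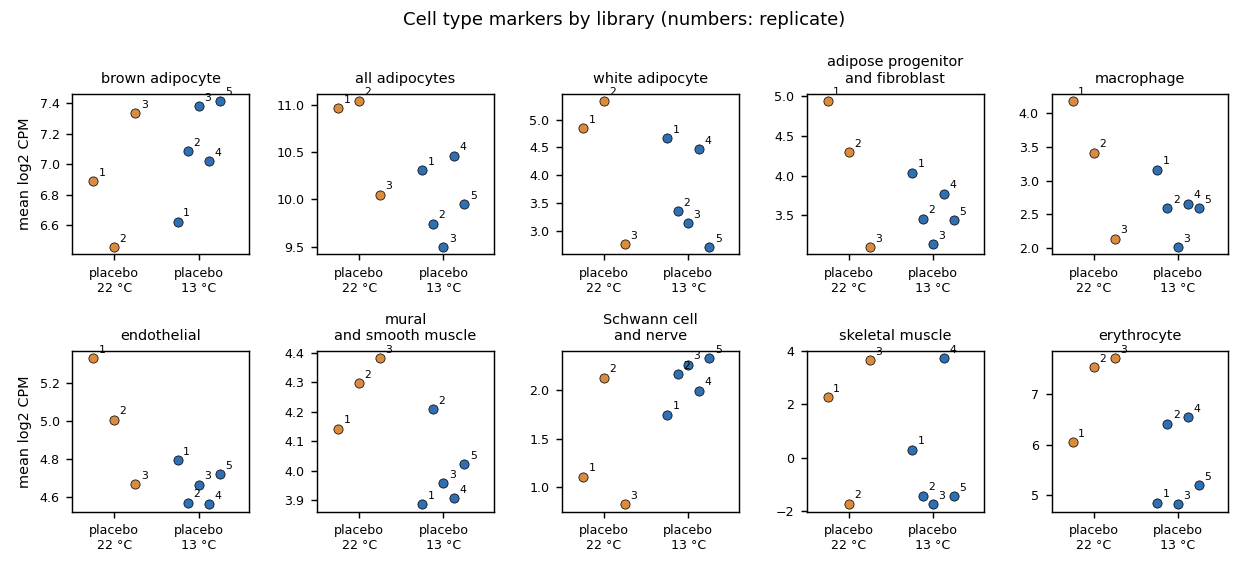
Mean log2 CPM (y axis) of 10 cell type marker lists in each placebo library by temperature (x axis), with replicate numbers beside the points. Ctrl_RT 1 and 2 sit high on the progenitor and macrophage lists, where Ctrl_RT 3 sits low, and the muscle list is high in Ctrl_RT 1 and 3 and Ctrl_CT 4.

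Whether the cold effect of placebo mice differed between depots was tested in 1 fit over the 26 placebo libraries of iBAT, subcutaneous (scWAT) and gonadal (goWAT) white fat, with CPM scaled over all of them. The cold effect differed between scWAT and iBAT for 43 of 20142 genes (0.213%; 0.114% more upward in scWAT and 0.0993% more downward) and between goWAT and iBAT for 8 (0.0397%; 0.0149% more upward in goWAT and 0.0248% more downward) at edgeR adjusted p under 0.05. At an unadjusted p under 0.05 the shares were 16.2% and 8.76%. After the GC correction 1 of the 43 genes passed for scWAT, Traf5, and 9 genes passed for goWAT, Guf1 not among them. BC028528 was one of the first: in iBAT it stood at 12.8 to 28.8 CPM at 22 °C and 69.2 to 147 CPM at 13 °C, and in scWAT at 6.37 to 7.84 and 2.07 to 6.60 CPM (difference -2.72 ± 0.46, edgeR adjusted p = 0.0295). The cytochrome c copies Gm10108 (-1.91 ± 0.39) and Gm13772 (-2.21 ± 0.46) differed in the same direction (edgeR adjusted p = 0.0395 for both). Retreg1 had 1.10 to 5.71 against 3.74 to 9.80 CPM in scWAT, with a difference from iBAT that did not pass (adjusted p = 0.305), nor did that of Cyp2b10 (0.663 to 2.58 against 0.986 to 8.88 CPM, edgeR adjusted p = 0.465).

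Other genes differed in the opposite direction. Eng had 67.5 to 104 against 25.4 to 47.5 CPM in iBAT and 67.1 to 90.95 against 77.0 to 146 CPM in scWAT (difference 1.83 ± 0.32, edgeR adjusted p = 0.0295). Ushbp1 differed by 1.5 ± 0.27, with means of 44.2 and 26.2 CPM in iBAT and 29.3 and 49.0 CPM in scWAT. Adora2a, the adenosine receptor that raises cyclic AMP, stood at 11.4 ± 3.71 and 1.98 ± 1.45 CPM in iBAT and at 9.88 ± 1.77 and 15.9 ± 5.71 CPM in scWAT (mean ± SD, 22 °C and 13 °C; 3.21 ± 0.60, edgeR adjusted p = 0.0318). Traf5, an adaptor of tumour necrosis factor receptors, differed by 3.23 ± 0.61 and Dtx2 by 1.34 ± 0.29 (edgeR adjusted p = 0.0326 and 0.0447). Traf5 was low, at 1.72 to 5.225 against 0.330 to 1.15 CPM in iBAT and 2.07 to 6.56 against 3.05 to 9.52 CPM in scWAT. For goWAT, Guf1, a mitochondrial translation factor, was at 18.2 ± 1.79 and 33.9 ± 5.10 CPM in iBAT and at 14.4 ± 1.16 and 9.80 ± 2.45 CPM in goWAT (difference -1.45 ± 0.28, edgeR adjusted p = 0.0476). Inafm1 (-2.79 ± 0.36), the palmitoyltransferase gene Zdhhc7 (-2.11 ± 0.29) and the ubiquitin ligase gene Rnf187 (-1.97 ± 0.28) also differed, and most of that difference lay in goWAT, where their cold effects were -2.25, -1.71 and -2.29, against 0.54, 0.39 and -0.32 in iBAT. The number of genes that differed from scWAT ran from 0 to 413 and from goWAT from 5 to 115 when 1 library was left out, and it was 0 for scWAT without iBAT Ctrl_CT replicate 2, scWAT Ctrl_RT replicate 1 or 4, or scWAT Ctrl_CT replicate 1 or 3.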

How the data were processed

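Raw counts of reads per gene were deposited by the authors, who per the submitters' processing notes used FastQC, GSNAP, featureCounts 1.6.3 and the mm10 build; for the annotation, strand setting and reads with several matches, the method is not given in the sources used here. Of 31933 genes, 17163 passed edgeR's filter (minimum count 10, minimum total 15) over the 18 iBAT libraries. edgeR 4.0.16 (R 4.3.3) fitted 4 groups with TMM scaling and the quasi-likelihood test. The depot test took 26 placebo libraries and 20142 genes. Alternatives were DESeq2 1.42.0, limma 3.58.1 with library weights, other scalings, no filter, a replicate block, left-out libraries and, chosen after seeing the data, a GC-content correction. The scripts were tested on simulated data. The labels do not say whether a shared replicate number marks a pair, and the numbers are not used as pairs. CPM are counts scaled to TMM-adjusted library sizes. Gene models are GENCODE M21 (GRCm38).

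The members and lists were chosen with earlier results of these data known. Named genes are the called ones, up to 12 of smallest p in each direction without overlap and with mean log2 CPM of at least 3, up to 4 per list and up to 8 per difference test. Gm10053, Gm10108, Gm13772, C920021L13Rik, Igfbp5 and some list members were chosen after their values were seen. The biological coefficient of variation was 50.5%. Of 116 named genes, 31 share over 10% of their 31-base words with another gene, so that counts may pass between copies. Without strand, counts may also pass between antisense genes whose exons overlap. Such overlaps occur in genes given as higher, such as Acot11 (1263 bases), Guf1 (1022), Gabarapl1 (570), Bnip3 (504) and Gpd2 (487). They also occur in genes given as lower, such as Adam15 (1263 bases) and Bscl2 (398). Each p-value sets a difference against the spread between libraries, some of which may share a mouse. Counts from PCR without molecular identifiers are not independent molecules.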

Additional observations from a re-analysis of the deposited data

Results flagged for a closer look

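Among 124 groups of 5 libraries tested for a library far from the others, 9 had one, where chance gives about 1 in 20. At 13 °C with placebo, Ctrl_CT replicate 2 stood apart for Apoe (729.8 CPM), Gpd2 (1182 CPM) and S100b (84.91 CPM). Ctrl_CT replicate 5 stood apart for Dld (728.5 CPM) and Gabarapl1 (278 CPM), replicate 1 for Mmp14 (7.421 CPM) and replicate 4 for Por (352.6 CPM). Under corticosterone at 13 °C, GC_CT replicate 1 was high for Retreg1 (59.99 CPM) and GC_CT replicate 4 low for Cyp2b10 (114 CPM).

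The placebo cold effect differed between depots by edgeR's quasi-likelihood test for these named genes. For scWAT minus iBAT the log2 difference was -2.72 for BC028528, -1.91 for Gm10108 and -2.21 for Gm13772, and it was 1.83 for Eng, 1.5 for Ushbp1, 3.21 for Adora2a, 3.23 for Traf5 and 1.34 for Dtx2. For goWAT minus iBAT it was -2.79 for Inafm1, -2.11 for Zdhhc7, -1.97 for Rnf187 and -1.45 for Guf1. After the GC correction only Traf5 of these scWAT genes passed, and Guf1 did not pass for goWAT. With 1 library left out, the highest edgeR adjusted p was 0.0692 to 0.106 for the scWAT genes and 0.2 for Guf1. It was 0.00533 to 0.00856 for Inafm1, Zdhhc7 and Rnf187.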

How the results depend on the processing

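The count of genes called for cold in placebo iBAT was 3. It became 78 with DESeq2, 1031 with limma and library weights, and 0 with the 8 placebo libraries alone. It was 0 to 3 when 1 library was left out. Without the muscle-rich pair Ctrl_RT 3 and Ctrl_CT 4 it was 1. That gene was Igfbp5 (log2 fold change -2.24, edgeR adjusted p = 0.0499), and Retreg1, Cyp2b10 and BC028528 did not pass. With the replicate number as a block the count was 0, and the scWAT difference had 98 genes under this block. Same-numbered libraries correlated at 0.431, 0.0145 and 0.427 in their deviations from the group means. The 22 °C libraries numbered 1 and 3 correlated best with the 13 °C libraries of the same number. The 22 °C library numbered 2 correlated best with the 13 °C library numbered 1, so whether the numbers mark pairs is not settled. The corticosterone difference had 9 genes with DESeq2, 1 with limma and 0 to 1 with 1 library left out. The scWAT difference had 14 genes without the low-count filter, 439 with DESeq2, 900 with limma, 1 after the GC correction and 0 to 413 with 1 library left out; the goWAT difference had 83, 325 and 5 to 115 with DESeq2, limma and 1 library left out. The cause of these changes was not tested.

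The sign changed for Ucp1, log2 fold change in placebo iBAT, at -0.021 with RLE scaling, -0.016 without the filter, -0.021 with DESeq2, -0.17 after the GC correction and -0.0281 with the 8 libraries alone, and it ran from -0.48 to 1.32 with 1 library left out. Ppargc1a was -0.011 without the muscle-rich pair. With 1 library left out Ppargc1a ran from -0.040 to 0.92, Cidea from -0.11 to 0.91, Dio2 from -0.0095 to 0.47 and Fasn from -0.048 to 0.16. The mitochondrial share differed by 4.49 to 6.83 percentage points with 1 library left out, where the exact permutation p was 0.0571 to 0.0952 with fewer libraries.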
